A study of Equus caballus with 21 samples.

Results

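The genes described here encode the structural proteins of the extracellular matrix in horse endometrium. They were taken as every gene of the authors' 21-library table whose RefSeq symbol names a collagen chain, a laminin chain, a fibulin or a fibrillin, together with FN1, DCN, LUM, BGN, VCAN, SPARC, NID1, NID2, POSTN and ELN. The rule itself used symbols, while the authors' choice of genes for that table also decided membership. It found 40 genes among the 10307 of that table. In the wider table of raw counts, 71 of 24942 gene IDs carried such a symbol. Of these, 31 stood outside the 21-library table, and 13 had no count in any library. The other 18 had at most 152 counts in all, the total of COL5A3, a minor fibrillar chain. They included NID2 with 87 counts, NID1 with 38, POSTN with 5 and ELN with 1 over the 21 libraries. COL3A1 was not analysed here.

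Fibrillar collagens form the tensile fibrils of connective tissue, and small proteoglycans such as decorin and fibril-associated collagens such as collagen XIV sit on the fibril surface. Laminins and collagen IV build the basement membrane, the sheet on which an epithelium rests, and collagen XVII anchors epithelial cells to it. In the endometrium the stroma is the connective tissue between the glands, while luminal epithelium faces the uterine cavity and glandular epithelium forms the glands. Fibronectin, fibulins and fibrillins link fibrils, elastic fibres and cell surfaces.

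Libraries came from laser capture microdissection, in which areas are cut out of stained frozen sections under a microscope, on day 12 of pregnancy or day 12 of the estrous cycle. There were 2 pregnant stromal libraries (mares M and U) and 2 cyclic ones (B and M), 4 pregnant and 4 cyclic glandular libraries (B, C, M and U in each state), and 4 pregnant (B, C, M and U) and 5 cyclic luminal libraries (B, C, J, M and U). All were healthy warmblood mares that ovulated after a dose of human chorionic gonadotropin in either state, and insemination preceded the pregnant state. The letters name 5 mares, whereas the design text speaks of 6. Stroma, luminal epithelium and glandular epithelium are written S, LE and GE below, with the mare's letter after the state.

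Total counts ran from 136259 to 1467510 per library, and 26 to 39 of the 40 genes had a count in a given library. Ribosomal RN18S took 66.2% of the counts in pregnant S of mare M, against 0.293% to 48.8% in the epithelial libraries and 0.819% to 30.8% in the other stromal ones. The gland markers P19, a secreted gland protein gene, and SCGB1A1 summed to 15029 to 52836 CPM in pregnant GE and 14376 to 40427 CPM in cyclic GE. The same sum was 830 to 5591 CPM in pregnant S and 1629 to 1939 CPM in cyclic S. In LE it was 356 to 1436 CPM in pregnancy and 1231 to 4394 CPM in the cycle, which overlapped S. Summed stromal fibroblast markers (8 genes) stood at 2317 and 3148 CPM in pregnant S and 2574 and 1419 CPM in cyclic S, against 93.5 to 374 CPM in GE and 20.8 to 707 CPM in LE. The list holds the matrix genes COL14A1, DCN and FBLN1. COL14A1 at 1367 CPM and DCN at 1040 CPM made up most of the sum in pregnant S of U. With libraries summed per mare, PDGFRB held 98.7, 228 and 219 CPM in S of B, M and U, against at most 53.8 CPM in the epithelia. PDGFRA, THY1, HAND2 and TCF21 overlapped the epithelia. THY1 held 230 CPM in LE of mare B, against 3.72 to 135 CPM in S. The gland markers FOXA2 and LGR5 had no count in any library, nor had TCF21, a stromal marker, in any stromal library. Summed epithelial markers (EPCAM, CLDN4, KRT7, KRT18 and CDH1) stood at 97.7 and 211 CPM in pregnant S, and 65.9 and 548 in cyclic S. The sum was 1187 to 2622 CPM in pregnant LE and 460 to 1290 CPM in cyclic LE. It was 878 to 1837 CPM in pregnant GE and 1542 to 15100 CPM in cyclic GE. Cyclic S of mare B, at 548 CPM, thus lay above cyclic LE of mare M, at 460 CPM. CLDN4 had no count in cyclic S, whereas KRT18 had 90 and EPCAM 76. KRT18 held 317 CPM in S of B, against 84.8 to 187 CPM in GE and 123 to 254 CPM in LE, with libraries summed per mare.

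The share of counts taken by the matrix genes was higher in every stromal library than in every glandular one, and overlapped between stroma and luminal epithelium. It was 0.641% and 1.63% in pregnant S and 1.26% and 2.87% in cyclic S. It was 0.183% to 0.266% in pregnant GE, 0.261% to 0.361% in cyclic GE, 0.347% to 0.800% in pregnant LE and 0.335% to 0.616% in cyclic LE. The overlap lay between pregnant S of mare M (0.641%) and pregnant LE of mare M (0.800%). RN18S, which is part of the total, took 66.2% of the counts in the first and 0.452% in the second. The part of RN18S in this overlap was not tested. On a scale of CPM, the count scaled to the TMM-adjusted library size, the 40 genes summed to 12384 and 14190 CPM in pregnant S and 10568 and 23803 CPM in cyclic S, against 2029 to 6309 CPM in the epithelial libraries. The stromal sums did not overlap those of the epithelia. By mean level over mares, 30 of the 40 genes were highest in S, 7 in LE and 3 in GE. Some of these means rest on 1 mare. COL15A1 held 0, 150 and 3.72 CPM in S of B, M and U, and COL4A5 held 0, 0 and 37.2 CPM. The same count was not made over all genes. In tissue areas of mixed cells, fewer cells of a type and less RNA per cell cannot be told apart, here and below.

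**Figure D1:**
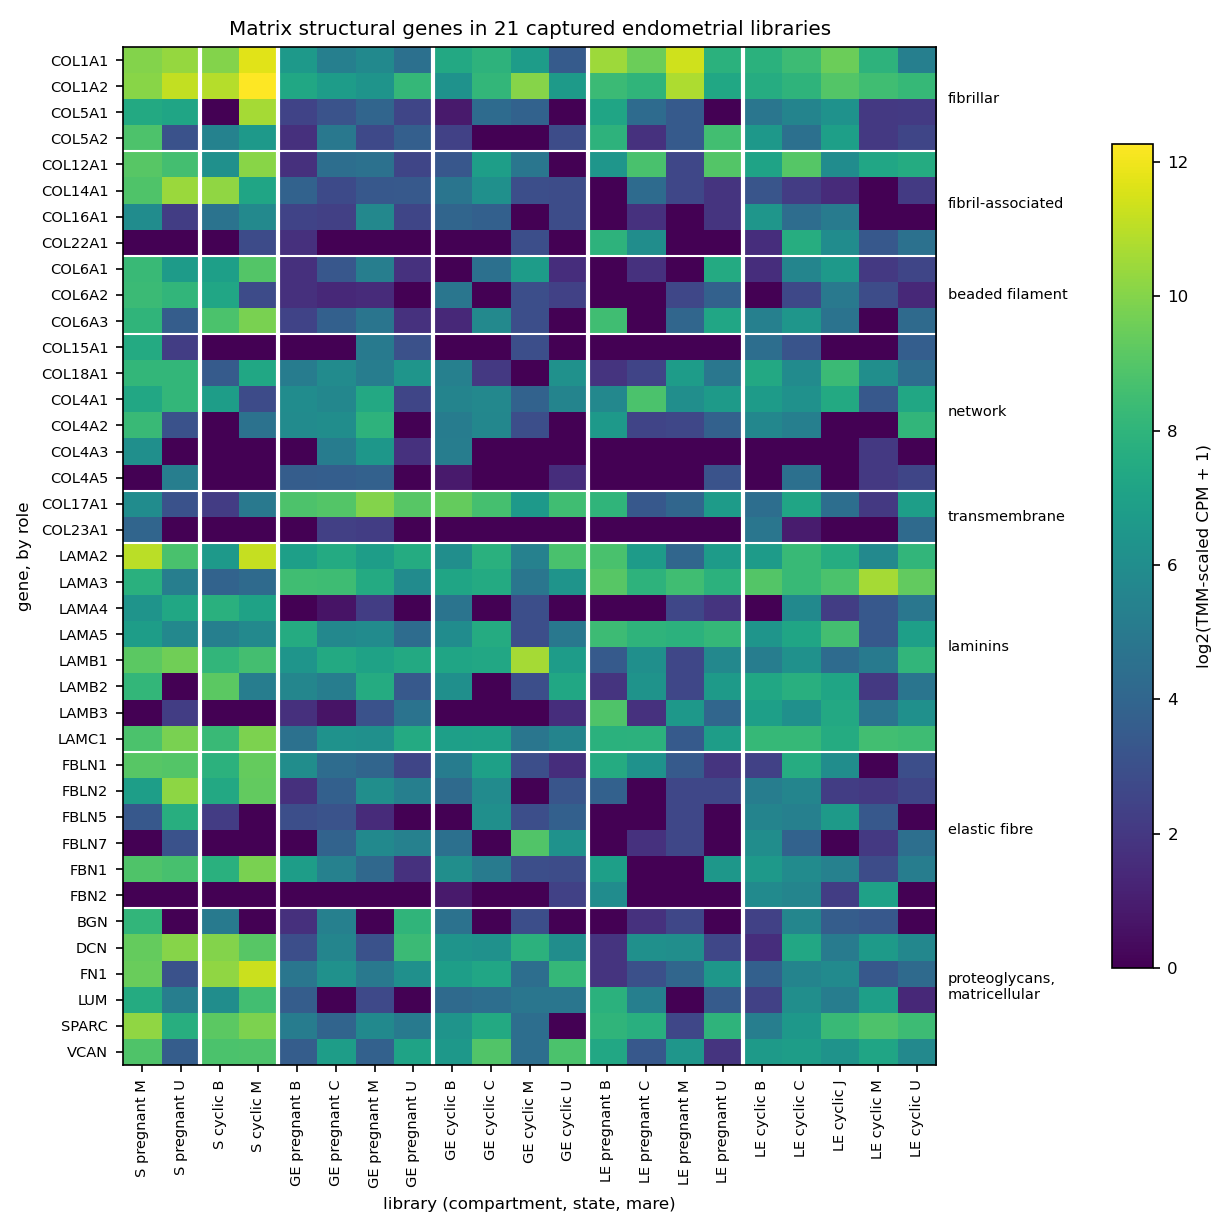
Level of 39 of the 40 matrix genes (rows, grouped by role) in each of the 21 libraries (columns, by compartment and state), as log2(TMM-scaled CPM + 1). The 4 stromal columns at the left are bright for COL1A1, COL1A2, COL14A1, DCN and FBLN1, pregnant LE of mares B and M is also bright for COL1A1 (1439 and 2684 CPM), COL17A1 is brightest in the glandular columns, and dark cells are genes with few or no counts.

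The first comparisons asked how the compartments differ. Counts were summed per mare and compartment, giving 3 stromal, 4 glandular and 5 luminal sums, and edgeR's quasi-likelihood test was run over all genes with the mare as a block and Benjamini-Hochberg adjustment at 0.05. Stroma of B and luminal epithelium of J were cyclic, stroma of U was pregnant, and stroma of M held both states with 1175127 of its counts from pregnancy. The deeper library thus weighs more in a sum. The test kept 37 of the 40 genes, and COL4A5 and COL23A1 were among those with too few counts.

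In S against LE, 6 of the 37 genes were higher and 1 was lower (edgeR, adjusted p below 0.05). Of all 9122 genes tested, 2.14% passed, 0.559% higher and 1.58% lower. In S against GE, 10 of the 37 were higher and 1 was lower, against 2.26% of all genes, 1.01% higher and 1.25% lower. In GE against LE, 0 were higher and 2 were lower, against 1.48% of all genes, 0.68% higher and 0.8% lower. COL17A1 in GE against LE was 2.54 ± 0.86 on the log2 scale (adjusted p = 0.119). At an unadjusted p under 0.05, 15 of the 37 genes differed in GE against LE, against 10.2% of all genes. DESeq2 called 1 of the 37 higher and 9 lower, against 7.17% of all genes called, and COL17A1 was the higher one. The median log2 fold change of the 37 genes was 1.40 in S against LE, 2.76 in S against GE and -1.01 in GE against LE. The median over all genes was -1.10, -1.34 and 0.18. With the scaling factors of DESeq2 (RLE) in place of TMM, the median of all genes moved to -0.85 in S against LE and -0.99 in S against GE. S against LE and S against GE share the 3 stromal sums. Calls by edgeR below are those of this main fit, with TMM factors and the mare as a block. Further edgeR calls came with RLE factors, without the block or with libraries left out. Losses of a call named by gene below come from leaving out mares or libraries. Losses under other settings are named in the last section.

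Counting by level instead, 11 of the 37 genes lay above every LE sum in all 3 S sums and 3 lay below, against 11.9% of all genes with groups that did not overlap. In S against GE, 14 lay above and 2 below, against 23.2% of all genes. In GE against LE, 2 lay above and 6 below, against 8.35%. Without the mare as a block, 12 of the 37 genes were called in S against LE, 16 in S against GE and 4 in GE against LE, against 4.69%, 3.35% and 2.28% of all genes in that fit.

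**Figure D2:**
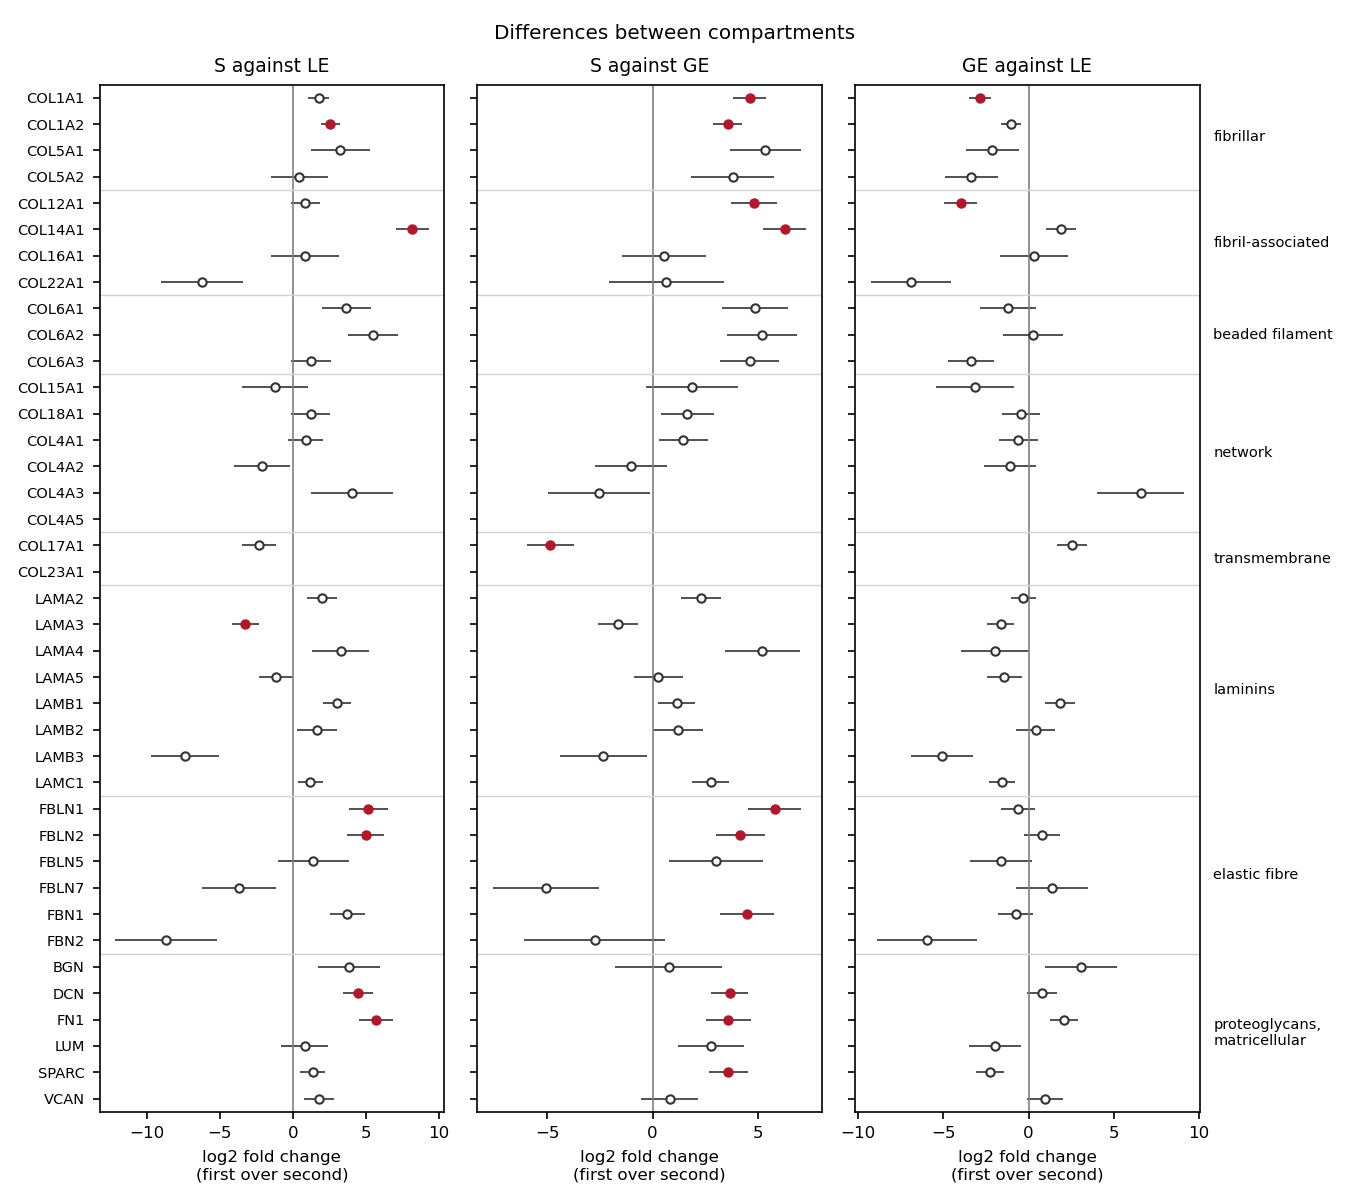
Log2 fold change of each tested gene between compartments, with bars of 1 SE from the edgeR fit of mare sums, and filled red points for adjusted p below 0.05. Red points lie right of 0 in the stromal comparisons except LAMA3 in S against LE and COL17A1 in S against GE, and left of 0 in GE against LE.

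Among fibrillar collagens, both chains of collagen I were high in stroma, and COL1A1 was also high in several luminal sums. COL1A1 encodes the more abundant chain of collagen I. It stood at 1026, 1705 and 1287 CPM in S of mares B, M and U. In GE it stood at 149, 91.2, 67.2 and 16.3 CPM in B, C, M and U, and in LE at 760, 429, 710, 1158 and 106 CPM in B, C, J, M and U. Every S sum was above every GE sum, whereas LE of mare M lay within the stromal range. COL1A1 was higher in S than in GE by a log2 fold change of 4.61 ± 0.80 (SE; edgeR, adjusted p = 1.79e-05) and lower in GE than in LE at -2.85 ± 0.66 (adjusted p = 0.00318). In S against LE it was 1.76 ± 0.73 (adjusted p = 0.214), and 2.06 with a call in DESeq2. The GE against LE call was lost at -2.35 without the pregnant LE and cyclic GE libraries of mare M.

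COL1A2, the partner chain, held 1907, 2193 and 2205 CPM in S of B, M and U. It held 97.8, 150, 288 and 195 CPM in GE of B, C, M and U, and 248, 244, 498, 873 and 230 CPM in LE of B, C, J, M and U. All 3 S sums lay above all others. COL1A2 was higher in S than in LE by 2.57 ± 0.67 (edgeR, adjusted p = 0.0122) and than in GE by 3.58 ± 0.70 (adjusted p = 0.00015). The S against LE call was lost without mares B (2.18), C (2.55) and U (2.18) and without cyclic S of B (2.24) or of M (2.25), and the S against GE call was kept in all 16 alternatives. COL5A1 and COL5A2, chains of the collagen that nucleates fibrils, averaged 231 ± 285 and 150 ± 218 CPM in S (SD, n = 3). COL5A1 had no count in S of mare B. Neither was called by edgeR in S against LE (3.25 ± 2.03 and 0.45 ± 1.93) or in S against GE (5.37 ± 1.67 and 3.80 ± 1.99). DESeq2 called both in S against GE (5.67 for COL5A1 and 4.17 for COL5A2) and COL5A2 in GE against LE (-3.43).

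Of the fibril-associated collagens, COL14A1 was the most separated. It encodes collagen XIV, which binds the surface of collagen I fibrils. It stood at 1198, 435 and 1354 CPM in S of B, M and U. It stood at 22.9, 22.2, 8.76 and 8.13 CPM in GE of B, C, M and U, and at 4.53, 7.49, 1.82, 1.94 and 2.88 CPM in LE of B, C, J, M and U. Every S sum lay above every GE sum, and every GE sum above every LE sum. COL14A1 was higher in S than in LE by 8.17 ± 1.12 (edgeR, adjusted p = 5.51e-10) and than in GE by 6.29 ± 1.02 (adjusted p = 2.49e-06), and both calls were kept in all 16 alternatives. GE against LE was 1.88 ± 0.89 (adjusted p = 0.409). COL14A1, DCN and FBLN1 stand in the stromal marker list used above, so they are no independent check of the stromal label.

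COL12A1, a fibril-associated collagen found in dense connective tissue, held 70.5, 743 and 379 CPM in S of B, M and U. It held 7.25, 44.8, 23.4 and 2.32 CPM in GE, and 114, 480, 60.2, 96.8 and 296 CPM in LE of B, C, J, M and U. S and LE overlapped, and GE lay below both. COL12A1 was higher in S than in GE by 4.83 ± 1.08 (edgeR, adjusted p = 0.0018), and lower in GE than in LE at -3.98 ± 0.98 (adjusted p = 0.00724). In S against LE it was 0.85 ± 0.98 (adjusted p = 0.7). The S against GE call was lost without mare U (4.34), and the GE against LE call without mares C (-4.19) and U (-3.37). COL22A1, a collagen of tissue junctions, had 1 count in S, 2 in GE and 394 in LE over all mares. Its CPM ratio of LE to S was 102 (95% counting interval 18.3 to 4050), and 222 of the 394 counts came from cyclic LE of mare C. COL22A1 was not called by edgeR, and DESeq2 called it in S against LE (-5.19) and GE against LE (-6.95). COL16A1 averaged 31.4 ± 31.5 CPM in S, 16.2 ± 16.7 in GE and 19.1 ± 20.7 in LE, with no call.

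The beaded filament collagens, which form fine filaments near cells, were not called by edgeR in any comparison of the main fit. With RLE factors edgeR called COL6A2 over LE (5.74) and over GE (5.63), and COL6A1 (5.25) and COL6A3 (4.89) over GE. DESeq2 called COL6A1 (4.14) and COL6A2 (5.77) in S against LE, COL6A1 (5.36), COL6A2 (5.67) and COL6A3 (4.92) in S against GE, and COL6A3 (-3.34) in GE against LE. COL6A2 held 152, 272 and 264 CPM in S of B, M and U, against 1.21 to 20.5 CPM in GE and 0 to 29.2 CPM in LE. Its S sums lay above all others, with log2 fold changes of 5.48 ± 1.73 over LE (edgeR, adjusted p = 0.0615) and 5.21 ± 1.66 over GE (adjusted p = 0.068). COL6A1 averaged 208 ± 164 CPM in S, 16.9 ± 24.3 in GE and 40.2 ± 41.4 in LE, and its S sums were likewise above all others (3.66 ± 1.70 over LE, 4.87 ± 1.59 over GE). COL6A3 held 451, 454 and 11.2 CPM in S of B, M and U, so that mare U lay within the epithelial ranges. It gave 1.23 ± 1.34 in S against LE and 4.61 ± 1.42 in S against GE (adjusted p = 0.0516).

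Network-forming collagens showed no call between compartments. COL4A1 and COL4A2 encode the chains that form the most widespread collagen IV of basement membranes. COL4A1 averaged 176 ± 89.6 CPM in S, 65.4 ± 47.1 in GE and 115 ± 59.7 in LE. COL4A2 averaged 92.2 ± 153 CPM in S, 72.0 ± 81.4 in GE and 52.5 ± 68.0 in LE, and its S mean rested on mare M at 269 CPM, against 0 in B and 7.44 in U. COL18A1, a collagen of vessel and epithelial basement membranes, averaged 184 ± 150 CPM in S, 47.6 ± 23.4 in GE and 111 ± 119 in LE. COL4A3 had 36 counts in S, 154 in GE and 1 in LE. Its CPM ratio was 124 in GE to LE (95% counting interval 22.0 to 4949) and 139 in S to LE (23.4 to 5628), with log2 fold changes of 6.57 ± 2.54 and 4.02 ± 2.81 that did not pass. All 36 stromal counts came from pregnant S of mare M. COL15A1 had at most 96 counts in a library and COL4A5 was not tested.

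COL17A1 was the 1 gene called lower in stroma than in glands. It encodes the transmembrane collagen of hemidesmosomes, the junctions that fix epithelial cells to the basement membrane. It stood at 3.52, 59.5 and 7.44 CPM in S of B, M and U, against 605, 462, 809 and 459 CPM in GE of B, C, M and U. In LE it stood at 126, 104, 20.1, 7.74 and 108 CPM in B, C, J, M and U. GE lay above both other compartments, and S and LE overlapped. COL17A1 was lower in S than in GE at -4.86 ± 1.12 (edgeR, adjusted p = 0.00264). The call was lost without mare B (-4.18), and 14 of 16 alternatives kept it. Pregnant S of mare M, the deepest stromal library at 1175127 counts, had 33 of the 41 stromal counts of COL17A1. In CPM COL17A1 stood at 62.2 and 7.51 in pregnant S of M and U, and at 3.49 and 29.9 in cyclic S of B and M. The gland marker sum was 5591, 830, 1939 and 1629 CPM in the same libraries. In cyclic LE of J and M the gland marker sum was 4394 and 4383 CPM, and COL17A1 had 11 and 1 counts. The part of captured gland in the stromal COL17A1 counts was not tested.

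Laminins are cross-shaped trimers of an alpha, a beta and a gamma chain. LAMA3, the alpha chain of the laminin that hemidesmosomes attach to, stood at 14.1, 185 and 37.2 CPM in S of B, M and U. It stood at 203, 295, 146 and 73.2 CPM in GE, and at 517, 276, 429, 1125 and 465 CPM in LE of B, C, J, M and U. S lay below LE in every sum and overlapped GE. LAMA3 was lower in S than in LE at -3.26 ± 0.92 (edgeR, adjusted p = 0.0246), and S against GE was -1.64 ± 0.95 (adjusted p = 0.347). The call was lost without mares B (-2.82), C (-3.45) and U (-3.32) and without cyclic S of mare B (-2.64).

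LAMB3 encodes the beta partner of LAMA3 in that laminin. It had 1 count in S, 17 in GE and 487 in LE, and stood at 273, 49.9, 166, 50.3 and 47.1 CPM in LE of B, C, J, M and U. Its CPM ratio of LE to S was 126 (95% counting interval 22.6 to 5003), and the fitted -7.40 ± 2.34 did not pass (edgeR, adjusted p = 0.0613), while DESeq2 called LAMB3 lower in S than in LE (-7.03) and in GE than in LE (-5.20). LAMA3 and LAMB3 both had their highest mean in LE.

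Chains of other laminins were not called by edgeR in the main fit. With RLE factors edgeR called LAMB1 in S against LE (3.39), and LAMC1 (3.17) and LAMA4 (5.67) in S against GE. Without the block it called LAMB1 (3.13) and LAMA2 (2.36) in S against LE, and LAMC1 (2.79) and LAMA2 (2.46) in S against GE. DESeq2 called LAMB1 in S against LE (3.39), LAMC1 (3.17), LAMA4 (5.76) and LAMA2 (2.63) in S against GE, and LAMC1 in GE against LE (-1.70). LAMB1, a beta chain of many laminins, held 268, 587 and 773 CPM in S against 18.2 to 175 CPM in LE, with 3.02 ± 0.95 (edgeR, adjusted p = 0.0596), and 131 to 438 CPM in GE. LAMC1, the most widely used gamma chain, averaged 607 ± 290 CPM in S, 88.0 ± 21.5 in GE and 240 ± 34.8 in LE, and its 3 groups did not overlap. It gave 1.19 ± 0.85 over LE and 2.76 ± 0.87 over GE (adjusted p = 0.0645). LAMA2, an alpha chain of muscle and connective tissue, held 98.7, 2308 and 424 CPM in S of B, M and U, and 172 ± 114 CPM in GE and 183 ± 84.7 CPM in LE. LAMA4, an alpha chain of vessel walls, averaged 161 ± 62.1 CPM in S, 5.88 ± 8.79 in GE and 13.5 ± 15.5 in LE. LAMA5, the main alpha chain of mature epithelial basement membranes, averaged 65.7 ± 35.8 CPM in S, 63.5 ± 32.4 in GE and 204 ± 107 in LE (-1.16 ± 1.17 in S against LE). LAMB2 averaged 274 ± 292 CPM in S, with no count in mare U, and 81.4 ± 50.3 in GE and 91.2 ± 66.9 in LE.

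Elastic fibre genes were led by FBLN1, FBLN2 and FBN1. FBLN1, a fibulin that binds fibronectin and laminin, stood at 236, 620 and 509 CPM in S of B, M and U. It stood at 42.3, 46.4, 13.1 and 3.48 CPM in GE, and at 83.7, 154, 62.0, 3.87 and 4.81 CPM in LE of B, C, J, M and U. All S sums lay above all others. FBLN1 was higher in S than in LE by 5.17 ± 1.32 (edgeR, adjusted p = 0.00922) and than in GE by 5.80 ± 1.24 (adjusted p = 0.00076). Both calls were lost without mare U (3.83 over LE, 4.70 over GE) and without its pregnant S library (3.88 and 4.67), and the call over LE also without mare M (4.46).

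FBLN2, a fibulin of elastic and basement membrane zones, held 173, 264 and 1134 CPM in S of B, M and U, against 13.9 to 51.1 CPM in GE and 3.65 to 32.4 CPM in LE. S did not overlap the epithelia, and mare U stood far above B and M. FBLN2 was higher in S than in LE by 4.97 ± 1.29 (edgeR, adjusted p = 0.0112) and than in GE by 4.17 ± 1.16 (adjusted p = 0.0217). Without mare U the values were 3.38 and 2.96, without its S library 3.65 and 2.76, and both calls were lost. The S against GE call was also lost without mares B (4.52) and C (3.98), without cyclic S of M (3.81), and without the pregnant LE and cyclic GE libraries of M (4.01).

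FBN1 encodes fibrillin, the main protein of microfibrils. It stood at 222, 630 and 405 CPM in S of B, M and U, against 77.9, 37.5, 14.6 and 4.65 CPM in GE and 108, 41.8, 40.1, 3.87 and 54.8 CPM in LE of B, C, J, M and U. The S sums were above all others. FBN1 was higher in S than in GE by 4.48 ± 1.28 (edgeR, adjusted p = 0.0263), and S against LE was 3.72 ± 1.21 (adjusted p = 0.0746), with a call at 3.98 in DESeq2. The edgeR call over GE was lost without mares C (4.61), M (3.38) and U (4.21). It was also lost without cyclic S of M (4.28) or pregnant S of U (4.43), and without the pregnant LE and cyclic GE libraries of M (4.31). In all, 9 of 16 alternatives lost it. FBN2, a fibrillin best known from development, had no count in S, 3 in GE and 147 in LE. With counts pooled over mares and a floor of 3 counts over the S sums, it was at least 12.7-fold lower in S than in LE. Its pooled CPM ratio of LE to GE was 60.6 (95% counting interval 20.3 to 297). The LE counts were 52, 52, 2, 41 and 0 in B, C, J, M and U, so LE overlapped both S and GE. FBN2 had no call by edgeR and a call by DESeq2 in GE against LE (-6.92). FBLN7 had 2 counts in S, 206 in GE and 62 in LE, and its CPM ratio of GE to S was 21.6 (5.91 to 180). FBLN5 averaged 72.0 ± 115 CPM in S, with 205 CPM in mare U against 3.52 in B and 7.82 in M.

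Among the proteoglycans and matricellular genes, DCN and FN1 were called in both stromal comparisons. DCN encodes decorin, a small proteoglycan that binds collagen fibrils and growth factors. It stood at 1019, 690 and 1030 CPM in S of B, M and U, against 61.0, 52.1, 56.9 and 192 CPM in GE and 2.26, 131, 32.8, 89.1 and 30.8 CPM in LE of B, C, J, M and U. The S sums lay above all others. DCN was higher in S than in LE by 4.47 ± 1.03 (edgeR, adjusted p = 0.00265) and than in GE by 3.67 ± 0.88 (adjusted p = 0.00426). The call over LE was lost without mares B (3.15) and U (4.08), and the call over GE without mares B (3.13) and C (3.42) and without cyclic S of B (2.76).

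FN1 encodes fibronectin, the adhesive glycoprotein that integrins bind. It stood at 1234 and 1253 CPM in S of B and M but at 7.44 CPM in S of U, against 93.0, 90.0, 27.7 and 195 CPM in GE and 7.92, 33.1, 56.6, 11.6 and 43.2 CPM in LE of B, C, J, M and U. Pregnant S of mare U had 2 counts of FN1, so this mare lay below the GE range and the groups overlapped. FN1 was higher in S than in LE by 5.69 ± 1.17 (edgeR, adjusted p = 0.000315) and than in GE by 3.61 ± 1.06 (adjusted p = 0.0346). Both calls were lost without mares B (4.72 over LE, 3.0 over GE) and M (4.35 and 2.23) and without cyclic S of B (5.02 and 2.85). The call over GE was also lost without mare C (3.53), without cyclic S of M (3.21), and without the pregnant LE and cyclic GE libraries of M (3.58).

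SPARC, a collagen-binding glycoprotein, held 585, 1238 and 205 CPM in S of B, M and U, against 68.2, 56.1, 48.2 and 15.1 CPM in GE and 135, 120, 312, 287 and 292 CPM in LE of B, C, J, M and U. S lay above GE and overlapped LE. SPARC was higher in S than in GE by 3.61 ± 0.94 (edgeR, adjusted p = 0.011), and S against LE was 1.34 ± 0.87 (adjusted p = 0.435). The call was lost without mares B (3.82) and M (2.99). LUM, the proteoglycan lumican, averaged 119 ± 119 CPM in S, 11.7 ± 5.05 in GE and 54.6 ± 37.2 in LE. VCAN, the large proteoglycan versican, averaged 323 ± 272 CPM in S, 151 ± 135 in GE and 88.3 ± 38.8 in LE, with 11.2 CPM in S of mare U. BGN, biglycan, averaged 86.2 ± 123 CPM in S, 43.3 ± 55.8 in GE and 11.2 ± 14.0 in LE, and neither LUM, VCAN nor BGN was called by edgeR. DESeq2 called LUM in S against GE (3.18) and SPARC in GE against LE (-2.40).

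**Figure D3:**
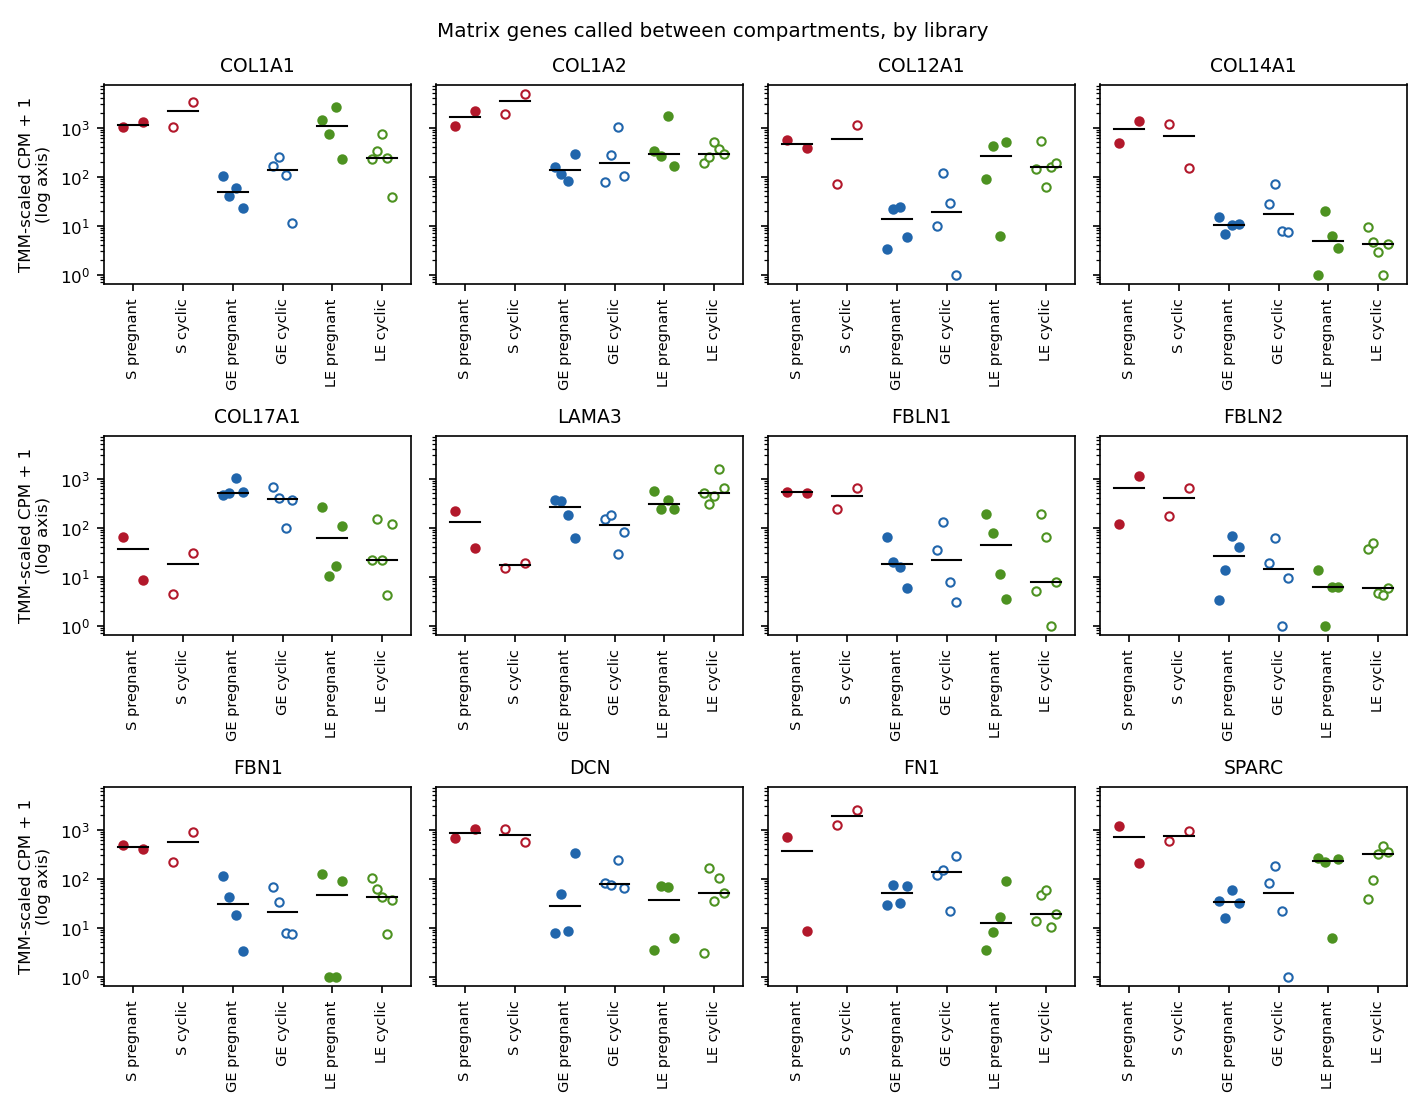
TMM-scaled CPM plus 1 on a log axis, by library, for the 12 genes called in any comparison between compartments; filled points are pregnant, open points cyclic, and lines are group medians. The stromal points of COL14A1 lie at 150 CPM and above, and those of the epithelia at 70.4 CPM and below, whereas 1 pregnant stromal point of FN1 lies among the epithelial ones.

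Other stromal cell types differed between the stromal libraries. Summed smooth muscle and pericyte markers (ACTA2, TAGLN, MYH11, DES and RGS5, with CNN1 and ACTG2 at 0) stood at 659 CPM in pregnant S of M and 2036 CPM in pregnant S of U, against 387 CPM in cyclic S of B and 593 CPM in cyclic S of M. Summed endothelial markers (8 genes, with CLDN5 at 0 everywhere and 1 of the 8 with a count in pregnant S of U) stood at 834 and 82.6 CPM in pregnant S of M and U, against 739 and 1413 CPM in cyclic S of B and M. FBLN2 and FBLN5 were highest in pregnant S of mare U, while FN1, COL6A3 and VCAN were lowest there. The part of these cell types in those levels was not tested.

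Ratios between stromal genes were compared between compartments, in a comparison chosen after the values were seen. In S against LE the log2 fold changes were 8.17 for COL14A1 and 4.47 for DCN, against 2.57 for COL1A2 and 1.76 for COL1A1. Higher average ratios in LE thus follow from these differences and are no further result. In count sums, COL1A2 over COL14A1 was 1.59, 5.04 and 1.63 in S of B, M and U, against 4.26 to 32.8 in GE and 32.6 to 451 in LE. COL1A1 over DCN was 1.01, 2.47 and 1.25 in S, against 0.085 to 2.44 in GE and 3.27 to 336 in LE. Both ratios were higher in every LE sum than in every S sum. COL1A2 over DCN did not separate them, with 1.87, 3.18 and 2.14 in S of B, M and U, against 1.02 to 5.05 in GE and 1.86 to 109.5 in LE. The LE ratios rest on 1 to 12 counts of COL14A1 and 2 to 210 counts of DCN.

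The next comparisons asked how the levels of each compartment differ between pregnant and cyclic mares at day 12. In LE, 25 of the 40 genes were tested and 0 passed, against 0.437% of all 4344 genes. By edgeR's quasi-likelihood test 1 of the 25 had an unadjusted p under 0.05, against 7.8% of all genes. DESeq2 called 0 of the 25 and 1.91% of all genes, and limma called 0 of either. None of the 25 had groups that did not overlap, against 4.81% of all genes. The median log2 fold change of the 25 was 0.25, and that of all genes -0.04. With RLE scaling the median of all genes moved to 0.11 in LE, and in GE to -0.05 against 0.07 with TMM.

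COL1A1 had the smallest p in LE. It stood at 1439, 738, 2684 and 224 CPM in pregnant LE of B, C, M and U, against 228, 335, 725, 241 and 38.0 CPM in cyclic LE of B, C, J, M and U. In each of the 4 mares with both states the pregnant library was the higher one, while pregnant LE of U lay below 4 of the 5 cyclic libraries. The log2 fold change was 1.99 ± 0.64 (edgeR, unadjusted p = 0.00209, adjusted p = 0.168). Without cyclic LE of mare J it was 2.66 with adjusted p = 0.0475, and over all 16 alternatives the adjusted p ran from 0.0475 to 0.583. Summed stromal fibroblast markers, COL14A1, DCN and FBLN1 included, were 23.2 to 707 CPM in pregnant LE and 20.8 to 405 CPM in cyclic LE. PDGFRA, HAND2 and TCF21 had no count in pregnant LE, THY1 had 202 counts in pregnant LE and 2 in cyclic LE, and the part of stroma in the COL1A1 levels was not tested.

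COL1A2 stood at 325, 262, 1721 and 160 CPM in pregnant LE of B, C, M and U, against 191, 251, 509, 366 and 292 CPM in cyclic LE of B, C, J, M and U. Only pregnant M stood outside the cyclic range on the high side, and U lay below it. The log2 fold change was 0.94 ± 0.70 (edgeR, adjusted p = 0.884), and it turned to -0.38 without pregnant LE of M. Because both chains build the same trimer, their count ratio was compared as well, a measure chosen after the values were seen. COL1A1 over COL1A2 was 4.43, 2.82, 1.56 and 1.40 in pregnant LE of B, C, M and U, against 1.20, 1.34, 1.42, 0.658 and 0.130 in cyclic LE of B, C, J, M and U. The pregnant values lay above the cyclic ones except for U, which at 1.40 was below cyclic J.

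The mean log2 ratio was 1.19 ± 0.77 in pregnant LE (SD, n = 4) and -0.47 ± 1.45 in cyclic LE (n = 5), and higher in pregnancy in 4 of 4 mares. The difference of 1.67 gave p = 0.0317 in an exact two-sided permutation test, whose smallest possible p is 0.0159. Ratios were computed for 8 pairs of chains, of which this pair was picked after its values were seen. Over all 24 tests of the 8 pairs in the 3 compartments (0.5 added to each count), the Benjamini-Hochberg adjusted p of this difference was 0.762, and no adjusted p was lower. Paired by mare, the exact p was 0.125, the smallest that 4 pairs allow. In GE the mean log2 ratio was -1.61 ± 1.48 in pregnancy and -1.40 ± 2.24 in the cycle (n = 4 each, exact p = 0.829). In S it was -0.45 ± 0.47 in pregnancy and -0.73 ± 0.23 in the cycle (n = 2 each, exact p = 0.667, smallest possible 0.333).

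**Figure D4:**
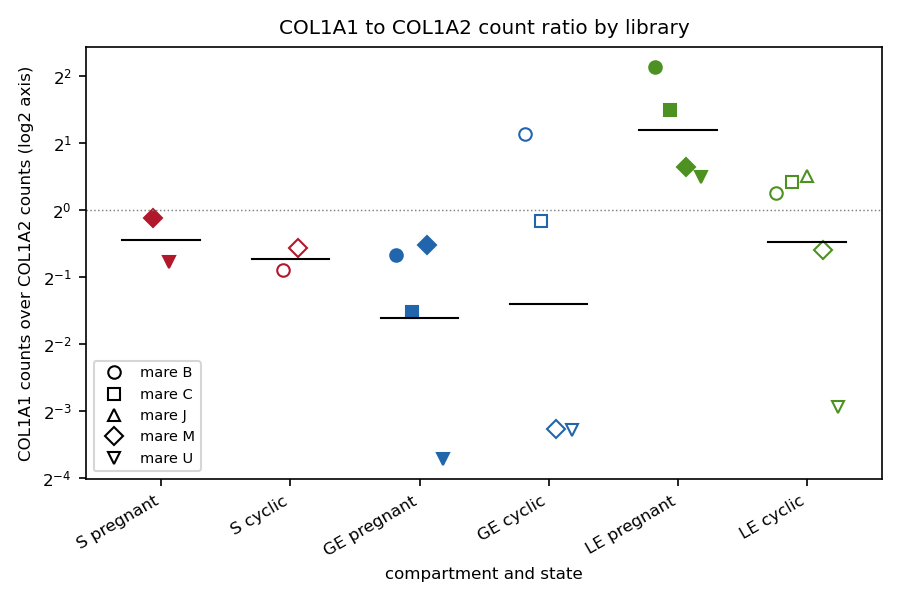
COL1A1 counts divided by COL1A2 counts in each library, on a log2 axis, by compartment and state; symbols are mares, filled points pregnant, open points cyclic, and lines mark the mean of the log2 ratio. Pregnant LE libraries lie between 1.40 and 4.43 and cyclic ones between 0.130 and 1.42.

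The other genes with the smallest p in LE differed by less than the test could call. COL6A3 averaged 133 ± 170 CPM in pregnant LE and 33.7 ± 32.9 CPM in cyclic LE (2.01 ± 1.41), and pregnant B alone held 366 CPM. COL5A2 averaged 158 ± 184 CPM in pregnant LE and 48.6 ± 54.2 CPM in cyclic LE (1.66 ± 1.28). LAMA5 averaged 279 ± 44.3 CPM in pregnant LE and 150 ± 144 CPM in cyclic LE (0.85 ± 0.89). LAMA3 averaged 348 ± 146 CPM in pregnant LE and 698 ± 516 CPM in cyclic LE (-0.97 ± 0.69). LAMC1 averaged 146 ± 107 CPM in pregnant LE and 302 ± 75.6 CPM in cyclic LE (-1.03 ± 0.88). COL18A1 averaged 36.0 ± 49.6 CPM in pregnant LE and 128 ± 123 CPM in cyclic LE (-1.90 ± 1.41). Adjusted p of these 6 genes ran from 0.853 to 0.965 in edgeR. FBLN5, not tested, had 1 count in pregnant LE and 124 in cyclic LE, so that its CPM in cyclic LE was 56.6 times that in pregnant LE (95% counting interval of the ratio 9.97 to 2252), with 103 CPM in cyclic J alone.

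In GE, 20 of the 40 genes were tested and 0 passed, against 0.0623% of all 4816 genes. At an unadjusted p under 0.05 there were 0 as well, against 7.27% of all genes, and DESeq2 and limma called 0 genes in all. None of the 20 had groups that did not overlap, against 2.78% of all genes. LAMB1 had the smallest p. It stood at 82.1, 176, 135 and 174 CPM in pregnant GE of B, C, M and U, against 149, 161, 1556 and 109 CPM in cyclic GE. Cyclic M stood far above the rest, which overlapped. LAMB1 gave -1.70 ± 0.89 (edgeR, adjusted p = 0.715), and 0.04 without that library.

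VCAN stood at 11.4, 112, 13.2 and 138 CPM in pregnant GE of B, C, M and U, against 92.2, 485, 20.5 and 446 CPM in cyclic GE. Each mare's pregnant value was the lower one, and the groups overlapped (-1.96 ± 1.05; edgeR, adjusted p = 0.736). FN1 averaged 49.9 ± 24.4 CPM in pregnant GE and 145 ± 112 CPM in cyclic GE (-1.54 ± 1.15), with cyclic M at 20.5 CPM. COL17A1 stood at 456, 501, 1016 and 533 CPM in pregnant GE and 660, 407, 95.5 and 364 CPM in cyclic GE of the same mares (0.76 ± 0.77). COL1A1 averaged 54.2 ± 33.8 CPM in pregnant GE and 133 ± 99.5 CPM in cyclic GE (-1.24 ± 1.16). COL1A2 averaged 160 ± 91.1 CPM in pregnant GE and 376 ± 458 CPM in cyclic GE, and its -1.15 ± 0.90 turned to 0.10 without cyclic GE of M. LAMA3 gave 1.14 ± 0.98, COL4A2 2.02 ± 1.44 and FBLN7 -2.23 ± 1.34, none of them called.

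In S, 26 of the 40 genes were tested between 2 pregnant and 2 cyclic libraries, and 0 passed, against 0% of all 2212 genes. At an unadjusted p under 0.05 there were 0 of the 26 and 88 of all genes, and DESeq2 and limma called 0 of the 26. The states share mare M only. Groups did not overlap for 7 of the 26 genes, 5 higher and 2 lower in pregnancy, against 31.2% of all genes. FN1 stood at 712 and 7.51 CPM in pregnant S of M and U, against 1221 and 2533 CPM in cyclic S of B and M (-2.20 ± 1.37; edgeR, adjusted p = 0.999). COL6A3 stood at 264 and 11.3 CPM in pregnant S, against 446 and 898 CPM in cyclic S (-2.11 ± 1.69). Both pregnant values of these 2 genes were below both cyclic ones.

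LAMB1 stood at 584 and 781 CPM in pregnant S of M and U, against 265 and 389 CPM in cyclic S of B and M (1.14 ± 1.43). COL18A1 stood at 277 and 274 CPM in pregnant S, against 10.5 and 156 CPM in cyclic S (1.92 ± 2.43). COL6A2 stood at 326 and 267 CPM in pregnant S, against 150 and 5.99 CPM in cyclic S (1.85 ± 2.34). These genes, with COL4A1 (1.82 ± 2.65) and LAMA3 (3.09 ± 3.11), were the 5 tested ones with both pregnant values above both cyclic ones. FBLN5 and COL15A1, which had too few counts for the test, also had both pregnant values above both cyclic ones. Their lower pregnant values were 9.42 CPM (5 counts in M) for FBLN5 and 3.76 CPM (1 count in U) for COL15A1. Both lay under the 3-count floors of cyclic S of B and M, 10.5 and 18.0 CPM, so these separations are not measurable. COL14A1 stood at 477 and 1367 CPM in pregnant S, against 1186 and 150 CPM in cyclic S (0.38 ± 1.30), and DCN at 659 and 1040 CPM against 1008 and 545 CPM (0.13 ± 1.25). COL1A2 gave -0.94 ± 1.16 and COL1A1 -0.79 ± 1.17. COL5A1 gave -2.07 ± 1.76, and 8.82 without cyclic S of mare M, which left a cyclic library with no count of it. With RLE scaling, the median of all genes in S was 0.02, against 0.26 with TMM.

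**Figure D5:**
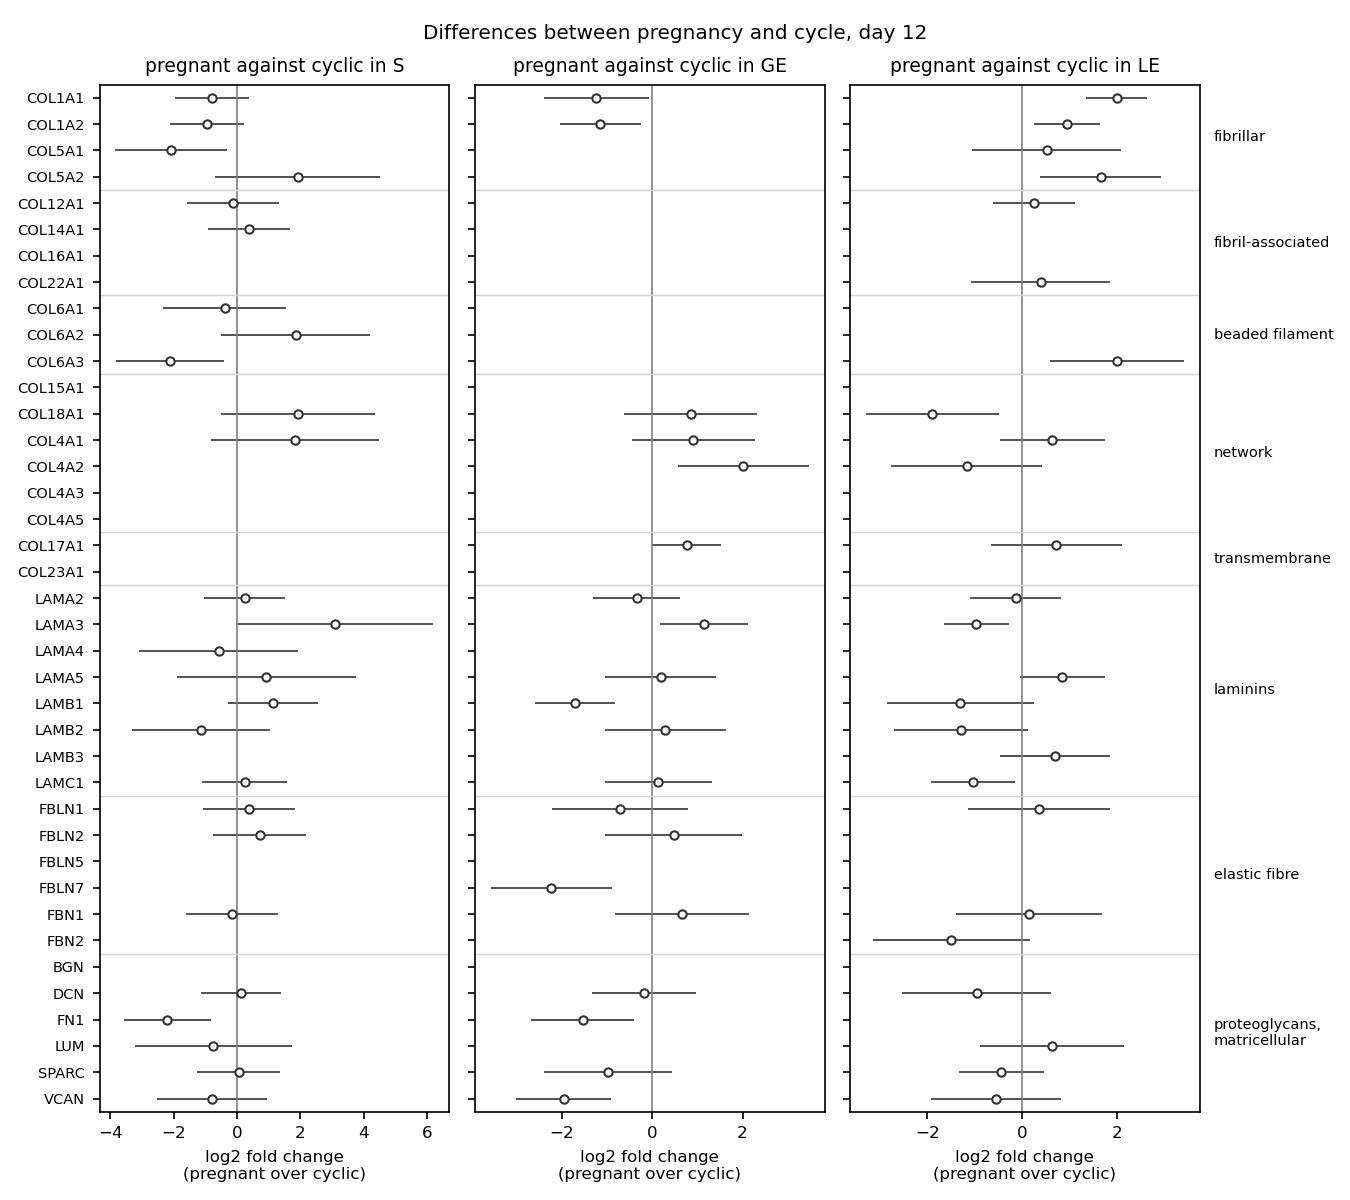
Log2 fold change of each tested gene between pregnancy and cycle, with bars of 1 SE from the edgeR fit in S, GE and LE. No point passed an adjusted p of 0.05, and the bar of COL1A1 in LE lies furthest from 0 relative to its length.

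Whether the pregnancy difference itself differed between the epithelia was tested in 16 epithelial libraries, those of every mare but J, in a fit that blocks on biopsy. Of the 40 genes 29 were tested and 0 passed, against 0.0145% of all 6884 genes, and 1 had an unadjusted p under 0.05, against 5.53% of all genes. That gene was COL1A1, with a difference of -3.28 ± 1.23 on the log2 scale, GE minus LE (edgeR, unadjusted p = 0.00757, adjusted p = 0.867). DESeq2, which called 1.13% of all genes, gave it -3.71 with adjusted p = 0.0137, and over the 7 alternatives the adjusted p ran from 0.0137 to 1. The median difference was 0.74 over the 29 genes and 1.28 over all genes, and the median over all genes was 0.98 with RLE scaling.

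Genes that process collagen, bind matrix or build its non-structural part were looked at from 3 lists. Of 17 tested genes of collagen processing, 1 was higher in S than in each epithelium and 0 were lower. The shares of all genes called higher and lower, given above, were 0.559% and 1.58% in S against LE and 1.01% and 1.25% in S against GE. It was CRTAP, a subunit of the complex that hydroxylates collagen prolines, with 426, 418 and 1320 CPM in S of B, M and U, against 21.9 to 85.8 CPM in GE and 25.2 to 142 CPM in LE. Its log2 fold changes were 3.65 ± 0.96 over GE and 3.66 ± 0.96 over LE (edgeR, adjusted p = 0.012 and 0.0124). Of 18 tested matrix receptors, 1 was higher and 3 were lower in S than in LE. MRC2, a receptor that takes up collagen, was higher (6.57 ± 1.84), although S of mare U held 3.72 CPM. DAG1, the laminin receptor dystroglycan (-4.78 ± 1.30), the proteoglycan SDC4 (-4.72 ± 1.20) and the integrin chain ITGB8 (-4.35 ± 1.14) were lower. In S against GE 0 were higher and DAG1 was lower (-4.83 ± 1.29).

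Of 35 tested other matrix glycoproteins, 3 were higher and 2 lower in S than in LE, against 0.559% and 1.58% of all genes. In S against GE, 4 were higher and 0 lower, against 1.01% and 1.25% of all genes. SPARCL1, a relative of SPARC, was higher over LE by 3.77 ± 0.76 and over GE by 3.51 ± 0.73 (edgeR, adjusted p = 0.000223 and 0.000491). DPT, dermatopontin, which binds decorin, was higher by 3.33 ± 0.75 and 3.44 ± 0.73. SMOC2 was higher over LE (7.75 ± 1.83), with 5.18 ± 1.80 over GE not called. It held 3.52, 322 and 617 CPM in S of B, M and U, so mare B lay within the LE range of 0 to 9.98 CPM. CCN3 (9.76 ± 2.44) and NPNT, nephronectin (8.15 ± 2.10), were higher over GE. FRAS1, which links epithelium to basement membrane, and CCN2 were lower in S than in LE (-6.18 ± 1.49 and -3.24 ± 0.90) and lower in GE than in LE (-5.45 ± 1.24 and -4.12 ± 0.81). CCN2 stood at 24.8 to 66.2 CPM in GE, against 581 to 1179 CPM in LE. In the pregnancy comparisons no tested gene of these lists passed in edgeR in any compartment.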

How the data were processed

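RNA of 21 laser-captured libraries was measured, amplified with the Ovation Single Cell kit and read as 125 bp single ends, per the labels' protocols. An unnamed subset of libraries had extra amplification, so its part could not be separated. Trimmomatic 0.32.2 and HISAT2 2.0.3 are named in the submitters' processing notes, while for the counting tool, strand setting and genome build the sources used here give no name. The authors deposited raw counts per gene ID and 2 tables of a CPM signal, of 21 and 19 libraries. In the deposited 21-library signal values equalled counts over 1 constant per library (largest relative deviation 9.3e-15), and columns summed to 701256 to 2193373. RefSeq symbols were matched to 85.88% of the count table's IDs.

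Raw counts were tested with edgeR 4.0.16 in R 4.3.3: TMM factors, filterByExpr (minimum count 10, minimum total 15), quasi-likelihood F-test and Benjamini-Hochberg adjustment over all genes tested at 0.05. The SE is the fold change divided by the square root of F. Levels are CPM on the TMM-scaled library size, and gene levels are not per length. Compartments were compared on counts summed per mare with the mare as a block, and states within a compartment without a block. Alternatives used DESeq2 1.42.0 (also its RLE factors), limma 3.58.1 on log2(deposited CPM + 1), no filter, another block, and leaving out mares or libraries. Leaving out single stromal libraries was chosen after seeing the data. The procedure was run on counts simulated from the fitted spread of these data, with no mare effect. S against GE and the pregnancy difference in GE minus LE were not simulated, and the recovery rates are not given here.

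The letter in a title names the animal, which pairs the states. Deviations of same-mare libraries correlated at 0.0182 to 0.055 in LE and -0.0141 to 0.0415 in GE over 9789 genes. The same mare was the best match for B, C, M and U in LE, and for C and U but not B and M in GE. Replicates within a group are different mares, as the titles name them. A floor of 3 counts equals 1.70 to 20.5 CPM per library. Intervals (95%, exact Clopper-Pearson) and floors cover counting error only. All members past the threshold were named, and otherwise the 8 with the smallest p in each pregnancy comparison; other members are named by role, and single features were picked after their values were seen where the text says so. The members and lists were chosen with earlier results of these data known. Values of 1 member are not reported here.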

Additional observations from a re-analysis of the deposited data

Results flagged for a closer look

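In 52 groups of 4 or 5 libraries, formed by the 12 called genes and the members' share of counts, 8 had a highest library far from the others by Dixon's test at 95%. The 1 in 20 of that level holds for normally distributed values, which CPM of few counts need not follow. The number flagged is therefore no measure of an excess over chance. COL12A1 stood at 527 CPM in cyclic LE of mare C, and the next library held 185 CPM. LAMA3 stood at 1594 CPM in cyclic LE of mare M, next to 648 CPM. The matrix genes took 0.616% of the counts in cyclic LE of mare J, next to 0.392%.

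COL1A2 stood at 1721 CPM in pregnant LE of mare M, next to 325 CPM, and FN1 at 87.7 CPM in pregnant LE of mare U, next to 15.5 CPM. COL17A1 stood at 1016 CPM in pregnant GE of mare M, next to 533 CPM. DCN stood at 326 CPM in pregnant GE of mare U, next to 46.5 CPM, and at 239 CPM in cyclic GE of mare M, next to 80.6 CPM.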

How the results depend on the processing

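The number of matrix genes called was 7 in S against LE, 11 in S against GE and 2 in GE against LE. With DESeq2 it was 14, 20 and 10, while the share of all genes called was 12.3%, 10.8% and 7.17%. With RLE factors it was 17 in S against GE, with 2.46% of all genes called. Limma on the deposited CPM gave 11 in S against LE and 1 in GE against LE (3.58% and 1.68% of all genes). With only the libraries of the 4 biopsies that hold stroma and the biopsy as a block it was 4, 4 and 0 (0.85%, 0.874% and 0.709% of all genes). In that fit COL1A2, LAMA3 and FBLN2 lost the call in S against LE, and COL1A1 and COL12A1 in GE against LE. FBLN1, FBLN2, FBN1, COL12A1, COL17A1, DCN and SPARC lost it in S against GE. Without the filter LAMA3 lost the call in S against LE, and FBLN2, FBN1 and FN1 in S against GE. With limma FN1 lost both calls, FBN1 that in S against GE and COL12A1 that in GE against LE. With no replicate block the number called was 12 in S against LE and 4 in GE against LE. Without the 2 libraries absent from the 19-library table, GE against LE gave 1. Leaving out 1 mare or stromal library gave 2 to 7 in S against LE, 6 to 15 in S against GE and 1 to 3 in GE against LE. The lowest came without mare U (2) and without mare B (6).

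In the pregnancy comparisons the count was 0 in each compartment, and leaving out 1 library gave 0 to 1 in LE, the 1 without cyclic LE of mare J. With the mare as replicate block it was 0 in LE and GE, and COL1A1 in LE was 2.51 with an edgeR adjusted p of 0.09. No paired analysis was possible in S because the states share only mare M. For the pregnancy difference in GE minus LE, DESeq2 called 1 gene. Directions turned for COL1A2 in LE (-0.38, without pregnant M and without the 2 libraries), for LAMB1 (0.0405) and COL1A2 (0.10) in GE (without cyclic M and without the 2 libraries), and for COL5A1 in S (2.01 with limma, 8.82 without cyclic M). Leaving out 1 library, COL1A2 ran from -0.38 to 1.26 in LE and from -1.51 to 0.10 in GE, LAMB1 in GE from -1.91 to 0.0405 and COL5A1 in S from -3.13 to 8.82. The cause was not tested. For 45 single-gene results followed through the alternatives, 557 values kept direction and side of the threshold, 69 lost a call and 2 gained one. The other tests of the matrix genes gained 65 calls over genes and settings. With 3 stromal sums and a floor of up to 20.5 CPM per library, small differences of low genes were not detectable.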
